A study of Mus musculus with 6 samples.

Results

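The genes described here act when a cell divides its chromosomes: the mitotic cyclins and kinases, the spindle checkpoint, the kinetochore, the spindle motors, the machinery of cytokinesis, and condensin. They were taken as the rows of the deposited count table whose gene symbol equals one of 49 listed names, and all 49 were found among the table's 45808 rows. The list was drawn up from gene function, with earlier results of these data known.

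The study sequenced polyadenylated RNA from T cells isolated from mouse spleen and then stimulated in culture with antibodies to CD3 and CD28 plus the growth factor IL-2. The 3 wild-type libraries carry the genotype label "wild type" and the 3 knockout (KO) libraries the label Drp1-/-. All 6 share a C57BL/6 background and an age label of 2M. Drp1, encoded by Dnm1l, is the dynamin-related GTPase that splits mitochondria. The driver or method used to delete it, the time in culture and whether the replicates came from separate animals were not stated in any source used here. The p-values therefore measure only how much these samples spread, and that spread may be technical. The title of the study names proliferation as one of its subjects, and the comparison of the genotypes bears on it through these genes.

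A resting T cell holds little mitotic RNA. After stimulation it enters repeated divisions, and genes of this kind are transcribed from late S phase to mitosis. Their promoters are held off by the MuvB core together with repressors in quiescent cells and switched on when MuvB joins B-Myb and FoxM1. Cyclin B with Cdk1 then drives entry into mitosis, the checkpoint holds anaphase back until every kinetochore is attached, and the anaphase-promoting complex ends mitosis by marking cyclin B and securin for destruction. In bulk RNA, a smaller share of cells in mitosis and less RNA per mitotic cell cannot be told apart.

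Total counts ran from 24738017 to 34730475 per library. Dnm1l was read at 119 ± 3.76 CPM (counts scaled to a common library size with the TMM normalization factor; mean ± SD, n = 3) in wild-type and 95.4 ± 4.57 CPM in Drp1 KO libraries (n = 3), a log2 fold change of -0.32 ± 0.05 (SE), in the direction of the labels. Counts are per gene, so any exons kept by a deleted allele would be counted too. The source of the remaining Dnm1l reads in KO was not tested. Among the wild-type libraries replicate 1 was the distant one: a chi-square per gene of 11.2 and 12.5 separated it from replicates 2 and 3, which differed by 2.43. The defining T cell genes were high in all 6 libraries, with means from 191 CPM (Cd247) to 661 CPM (Lck) in wild type. Of 10 T cell markers 7 fell in KO (26.1% of all tested genes fell), Cd2 and Cd8a did not pass, and Thy1 rose from 509 to 670.4 CPM (log2 0.40 ± 0.05). B cell markers summed to 202 to 218 CPM in wild type against 191 to 202 CPM in KO. Gamma-delta T cell markers summed to 42.1 to 48.9 CPM in wild type against 99.9 to 119 CPM in KO, and NK cell markers to 16.2 to 23.1 and 33.8 to 40.5 CPM. Eomes made up most of the NK cell sum and rose (18.5 to 32.8 CPM). Ncr1 and Klrb1c also rose but had far fewer counts, and Klra8 was too low to test. Plasma cell markers summed to 236 to 257 CPM in wild type against 263 to 287 CPM in KO. Xbp1 made up most of that sum and rose (211 to 246 CPM), Mzb1 fell (27.9 to 23.9 CPM), Sdc1 and Derl3 did not pass, and Jchain was too low to test. Myeloid markers summed to 5.24 to 6.79 and 7.87 to 8.76 CPM, with Elane and S100a8 at 0 in all libraries. Of the red cell genes, Epor fell from 9.07 to 4.18 CPM (log2 -1.10 ± 0.16), Klf1 rose from 0.276 to 0.553 CPM, and Alas2, Slc4a1, Hbb-bs and Hba-a1 had at most 3 counts in any library. The part of these cell types in the results below was not tested. Xist, read only from an inactive X chromosome, had between 0 and 3 counts per wild-type library but between 12950 and 16862 per KO library, while the 4 Y-linked genes summed to 426 to 532 CPM in wild type against 284 to 306 CPM in KO. Each KO library thus held both Xist and Y-linked RNA, and the wild-type libraries nearly no Xist. The sex of the animals cannot be told apart from the genotype, and whether a KO library pools animals of both sexes was not tested.

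Mitotic genes moved in both directions in the KO cultures, by small amounts. Of the 49, all of which passed the expression filter, 21 rose, 9 fell and 19 did not pass the test (edgeR quasi-likelihood, Benjamini-Hochberg adjusted p under 0.05 over 14209 tested genes). The rises were led by Mybl2, which encodes the transcription factor B-Myb, Plk1, the polo kinase, and Ccnb1 and Cdk1, the subunits of the kinase that starts mitosis. The falls were led by Cdc25b, a phosphatase that activates Cdk1, and Ndc80, a kinetochore subunit. Called genes made up 52.9% of all tested genes, 26.7% higher and 26.1% lower, and 61.2% of the mitotic genes, 42.9% higher and 18.4% lower. Counts for the role groups and lists below are to be read beside these shares of all tested genes.

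The sizes were modest for this comparison. The median absolute log2 fold change was 0.16 for the 49 genes and 0.27 for all tested genes. Among the 49, the change was under 1.5-fold in 48, and the exception was Mybl2. Rises ran from 0.13 to 0.70 and falls from -0.28 to -0.11 on the log2 scale. The 19 genes that did not pass had log2 fold changes of -0.09 to 0.13 with standard errors of 0.04 to 0.07, so a change of similar size to the smaller called ones cannot be set aside for them. The median log2 fold change was 0.11 for the 49 genes and 0.01 for all tested genes.

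All 3 KO libraries lay above all 3 wild-type libraries for 24 of the 49 genes and below them for 10, so that 34 genes, or 69.4%, had groups that did not overlap. Over all tested genes these shares were 32.5% above, 30.8% below and 63.3% in either direction. Each of the 30 called mitotic genes had groups that did not overlap. Ccnb2, Cdca8, Nuf2 and Foxm1 had groups that did not overlap without passing the test.

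With library totals alone as the scaling, 28 mitotic genes rose and 3 fell, those being Cdc25b, Cenpa and Ndc80. Under that scaling 62.0% of all calls were higher in KO, against 50.6% with TMM, and the log2 fold changes of the 9 genes that fell ran from -0.20 to -0.04. The count of falling genes was also 5 without KO replicate 1, 4 without KO replicate 2 and 3 without KO replicate 3.

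**Figure D1:**
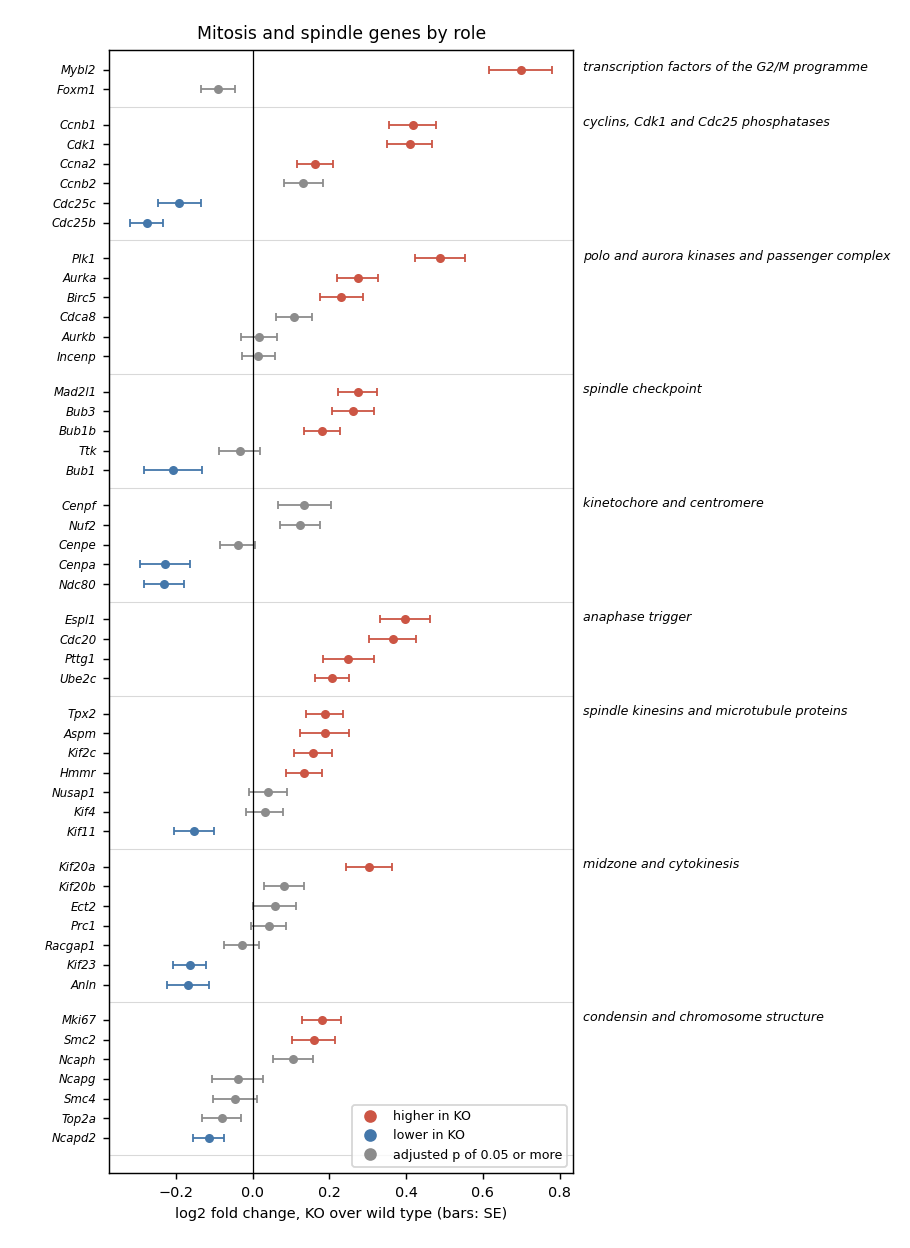
Log2 fold change of KO over wild type (x axis, bars are the standard error) for each of the 49 mitosis and spindle genes (y axis, grouped by role and ordered by size within a role). Red points rose, blue points fell and grey points did not pass at an adjusted p under 0.05; Mybl2 lies farthest right at 0.70 and Cdc25b farthest left at -0.28.

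Levels differed widely between these genes. Per kilobase of annotated exon, Top2a, the topoisomerase that untangles sister chromatids, was highest in wild type at 233 CPM per kb, followed by Cenpa, the centromeric histone, at 213 and the condensin ATPase gene Smc4 at 142 CPM per kb. Mybl2 was lowest at 7.59 CPM per kb, with Aspm, a spindle pole protein, next at 12.8 and Cenpf, a large kinetochore protein, at 13.0 CPM per kb. The length used is the union of all annotated exons, which exceeds the main transcript in genes such as Mad2l1. Together the 49 genes held 0.962% ± 0.015 of counts in wild type and 1.05% ± 0.031 in KO (SD, n = 3 each). Those shares are of raw library totals. With the TMM factors the sum was 9770 to 9967 CPM in wild type against 9878 to 10457 CPM in KO, and KO replicate 1, at 9878 CPM, lay within the wild-type range.

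The transcription factors of the mitotic programme, Mybl2 and Foxm1, differed. Mybl2 (chromosome 2, 163054687 to 163084688, mm10) was read at 24.2, 28.5 and 30.5 CPM in wild-type replicates 1, 2 and 3 and at 43.8, 47.7 and 44.0 CPM in KO replicates 1, 2 and 3. Every KO library was above every wild-type library, and the log2 fold change was 0.70 ± 0.08, or 1.62-fold (adjusted p = 0.00012). Foxm1, encoding the forkhead factor that activates late mitotic genes, was at 153, 150.2 and 148 CPM in wild type against 143, 139 and 142 CPM in KO (log2 -0.09 ± 0.04, adjusted p = 0.106). Its KO libraries all lay below its wild-type libraries, by a margin that did not pass the test.

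Of the 6 genes for mitotic cyclins, Cdk1 and its activating phosphatases, 3 rose, 2 fell and 1 did not pass. The kinase subunits rose. Cdk1 was at 134, 151 and 141 CPM in wild type against 180.1, 199 and 189 CPM in KO (log2 0.41 ± 0.06, adjusted p = 0.0003). Ccnb1, cyclin B1, was at 78.6, 89.3 and 86.0 CPM in wild type against 107, 116 and 117 CPM in KO (log2 0.42 ± 0.06, adjusted p = 0.000348). In both genes wild-type replicate 1 was the lowest library and KO replicate 1 the lowest KO library, and the groups stood clear of each other. Ccna2, cyclin A2, which serves S phase and early mitosis, rose less (log2 0.16 ± 0.05), and Ccnb2 reached log2 0.13 ± 0.05 with an adjusted p of 0.0502.

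Cdc25b and Cdc25c, the listed genes for phosphatases that remove the inhibitory phosphates from Cdk1, fell in the same libraries. Cdc25b was at 213, 212 and 215 CPM in wild type against 179, 173 and 177 CPM in KO. Its log2 fold change was -0.28 ± 0.04 (adjusted p = 0.000451), the largest fall of the 49. Cdc25c was at 42.6, 41.9 and 39.1 CPM in wild type against 35.96, 36.4 and 35.8 CPM in KO (log2 -0.19 ± 0.06, adjusted p = 0.0146). The spread within each group was small for both, and no KO library reached the wild-type range. With library totals alone as the scaling the log2 fold change of Cdc25c was -0.11 and did not pass. In all, its call was lost in 4 of 15 alternatives.

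Among the polo and aurora kinases and the chromosomal passenger complex, which corrects faulty kinetochore attachments, 3 of 6 genes rose and 0 fell. Plk1, which acts from mitotic entry to cytokinesis, was at 83.0, 96.7 and 95.8 CPM in wild type against 124, 134 and 129 CPM in KO. Its log2 fold change was 0.49 ± 0.07, or 1.40-fold (adjusted p = 0.000227). Aurka, the aurora kinase of the spindle poles, rose (log2 0.27 ± 0.05), as did Birc5, survivin, the passenger subunit that binds chromatin (log2 0.23 ± 0.06). The partners of survivin did not pass: the kinase gene Aurkb had log2 0.02 ± 0.05, the scaffold gene Incenp log2 0.02 ± 0.04 and Cdca8, borealin, log2 0.11 ± 0.05. For Aurkb and Incenp the groups overlapped.

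The spindle checkpoint is a set of proteins that gather at unattached kinetochores and block Cdc20. In it 3 of 5 genes rose and 1 fell. Mad2l1, encoding Mad2, which seizes Cdc20, was at 112, 119.97 and 119 CPM in wild type against 135, 145 and 144 CPM in KO (log2 0.27 ± 0.05, adjusted p = 0.00132). The genes for its companions in the inhibitory complex rose too, Bub3 by log2 0.26 ± 0.06 and Bub1b by log2 0.18 ± 0.05. Bub1, a checkpoint kinase at kinetochores, went the other way. It was at 177, 152 and 142 CPM in wild type against 130.1, 138 and 139 CPM in KO (log2 -0.21 ± 0.07, adjusted p = 0.0388). Its wild-type values were widely spread, with replicate 1 highest, and the lowest of them, 142 CPM, lay close to the highest KO value, 139 CPM. Without wild-type replicate 1 the log2 fold change of Bub1 was -0.11 and it did not pass (adjusted p = 0.0521). In all, the call of Bub1 was lost in 7 of 15 alternatives. Ttk, the kinase Mps1 that starts checkpoint signalling, had log2 -0.03 ± 0.05 and did not pass.

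Of the kinetochore and centromere genes 0 of 5 rose, 2 fell and 3 did not pass. Nuf2 passed as higher in 4 of 15 alternatives and Cenpf in 2, both of them with library totals alone as the scaling. Ndc80, whose product grips the microtubule, was at 82.7, 83.6 and 78.6 CPM in wild type against 67.2, 69.3 and 72.3 CPM in KO. It fell by 0.23 ± 0.05 on the log2 scale (adjusted p = 0.00409). Nuf2, its direct partner in the same complex, had log2 0.12 ± 0.05 and did not pass (adjusted p = 0.0698). Cenpa, the histone H3 variant that marks centromeres, was at 385, 331 and 334 CPM in wild type against 315, 290.1 and 290.3 CPM in KO (log2 -0.23 ± 0.06, adjusted p = 0.013). Replicate 1 was the highest library of its group for Cenpa in both genotypes. The kinesin gene Cenpe had log2 -0.04 ± 0.05 and Cenpf log2 0.13 ± 0.07, and neither passed.

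All 4 genes listed for the anaphase trigger rose, beside 26.7% of all tested genes. The group is small and was drawn up with earlier results of these data known. Espl1, separase, the protease that cuts cohesin, was at 106, 119 and 126 CPM in wild type against 149, 159.8 and 155 CPM in KO (log2 0.40 ± 0.06, adjusted p = 0.000627). Cdc20, the activator of the anaphase-promoting complex, rose by log2 0.36 ± 0.06, from 112 ± 8.77 to 145 ± 4.75 CPM. Pttg1, securin, which holds separase inactive, rose by log2 0.25 ± 0.07, and Ube2c, the ubiquitin-conjugating enzyme of the complex, by log2 0.21 ± 0.04. The inhibitor and its protease were thus both higher in KO. For all 4 genes the lowest KO library was above the highest wild-type library.

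**Figure D2:**
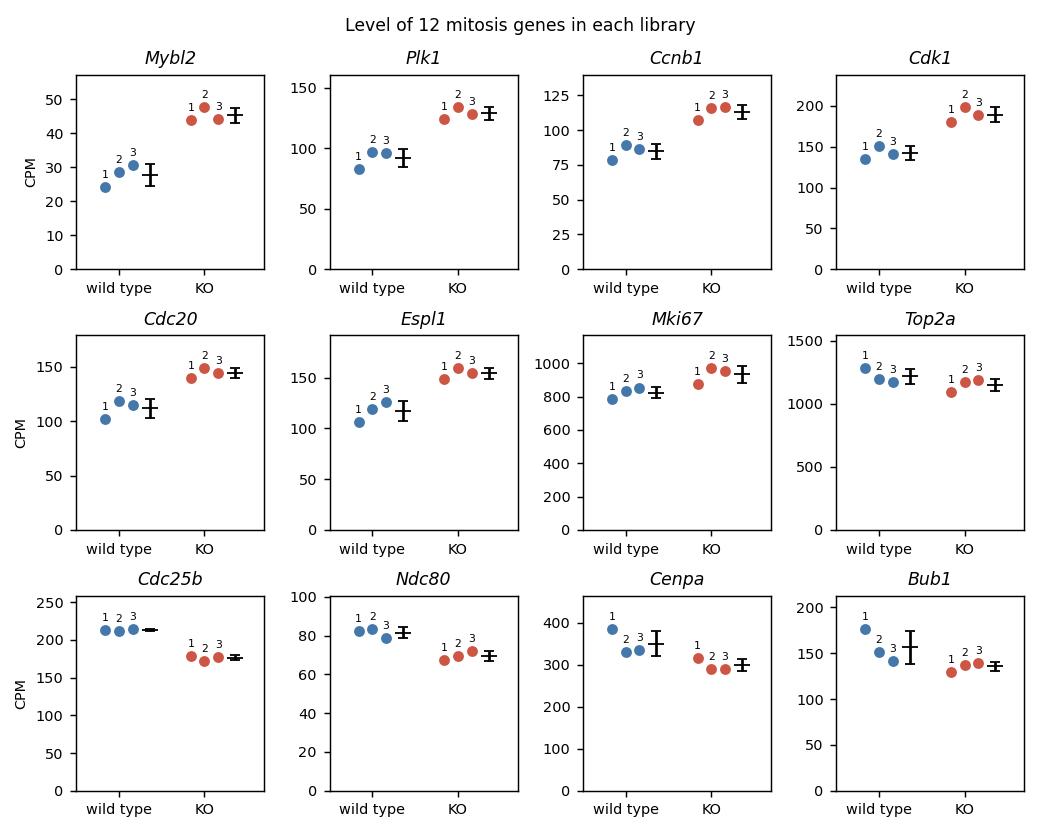
Expression of 12 mitosis genes in CPM (y axis, from 0) against genotype (x axis), 1 numbered point per library, while the bars beside them show the mean and SD of 3 libraries. Plk1 runs from 83.0 to 96.7 CPM in wild type against 124 to 134 CPM in KO, whereas the groups overlap for Top2a.

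Spindle motors and microtubule proteins had 4 of 7 members higher and 1 lower. Tpx2, which activates Aurora A and nucleates spindle microtubules, was at 213, 226 and 227 CPM in wild type against 243, 259.8 and 257 CPM in KO (log2 0.19 ± 0.05, adjusted p = 0.0078). The spindle pole gene Aspm rose by log2 0.19 ± 0.06, the microtubule depolymerase gene Kif2c by log2 0.16 ± 0.05 and Hmmr, a spindle assembly factor, by log2 0.13 ± 0.05. Kif11, the plus-end motor that pushes the spindle poles apart, fell instead. It was at 421, 385 and 378 CPM in wild type against 343, 359 and 363 CPM in KO (log2 -0.15 ± 0.05, adjusted p = 0.0291). The nearest libraries of the groups differed by less than the spread within wild type, whose replicate 1 was highest. Nusap1 (log2 0.04 ± 0.05) and the chromokinesin gene Kif4 (log2 0.03 ± 0.05), the one X-linked gene of the 49, did not pass.

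Genes of the spindle midzone and cytokinesis were mixed, with 1 of 7 higher, 2 lower and 4 that did not pass. Kif20a, the midzone motor that delivers the passenger complex, was at 111, 126 and 119.6 CPM in wild type against 138, 153 and 149 CPM in KO (log2 0.30 ± 0.06, adjusted p = 0.00202). Kif23, the motor subunit of centralspindlin, was at 140.5, 138 and 137 CPM in wild type against 123, 123 and 124 CPM in KO (log2 -0.16 ± 0.04, adjusted p = 0.00928). Anln, anillin, which organises the contractile ring, was at 127, 113 and 116 CPM in wild type against 106, 104 and 107 CPM in KO (log2 -0.17 ± 0.05, adjusted p = 0.0252). The motor genes Kif20a and Kif23 thus moved in opposite directions. Racgap1, the other centralspindlin subunit, had log2 -0.03 ± 0.05. Ect2, the exchange factor that activates RhoA at the midzone, had log2 0.06 ± 0.06, the microtubule bundler gene Prc1 log2 0.04 ± 0.05 and Kif20b log2 0.08 ± 0.05, and for each of these 4 genes the groups overlapped. Exons of Kif20a overlap those of Cdc23 on the opposite strand, and the strand setting of the counting is not given, so reads there may not be separated.

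Of the condensin and chromosome structure genes 2 of 7 rose and 1 fell. Mki67, the Ki-67 protein that coats mitotic chromosomes and is the common marker of cycling cells, was at 787, 831 and 854 CPM in wild type against 877, 972 and 951 CPM in KO. It rose by log2 0.18 ± 0.05 (adjusted p = 0.0134), with the groups apart. Top2a was at 1284, 1196 and 1169 CPM in wild type against 1094, 1172 and 1184 CPM in KO (log2 -0.08 ± 0.05, adjusted p = 0.196), and its groups overlapped. The subunits of condensin I, the ring that compacts chromosomes, did not move as a unit. Smc2 rose (log2 0.16 ± 0.06), while Ncapd2, a regulatory subunit, was at 516, 515 and 498 CPM in wild type against 463, 467 and 481 CPM in KO and fell by 0.11 ± 0.04 on the log2 scale (adjusted p = 0.0373). Smc4 (log2 -0.05 ± 0.06), Ncapg (log2 -0.04 ± 0.07) and Ncaph (log2 0.11 ± 0.05) did not pass. The log2 fold change of Ncapd2 was -0.04, and it did not pass, with library totals alone as the scaling. In all, the call of Ncapd2 was lost in 8 of 15 alternatives.

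The libraries within a genotype differed in a way that touched many of these genes. KO replicate 1 was the lowest KO library for 38 of the 49. It was also the lowest for 36 of 40 replication and S phase genes and for 8 of 17 anaphase-promoting complex genes, both listed below. The share over all tested genes is not given here. Wild-type replicate 1 was the lowest wild-type library for 19 of the 21 genes that rose and the highest for 7 of the 9 that fell, which are genes chosen by their calls. Among the 19 that did not pass it was the lowest for 4 and the highest for 11. Without wild-type replicate 1 the counts were 22 higher and 8 lower, with 21 and 8 of them called with all libraries as well, and the median log2 fold change of the 49 genes was 0.09. Averaged over the 49 genes, log2 CPM relative to each gene's mean was -0.06, -0.03 and -0.06 in wild-type replicates 1, 2 and 3. It was 0.00331 in KO replicate 1 and 0.07 in each of KO replicates 2 and 3.

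**Figure D3:**
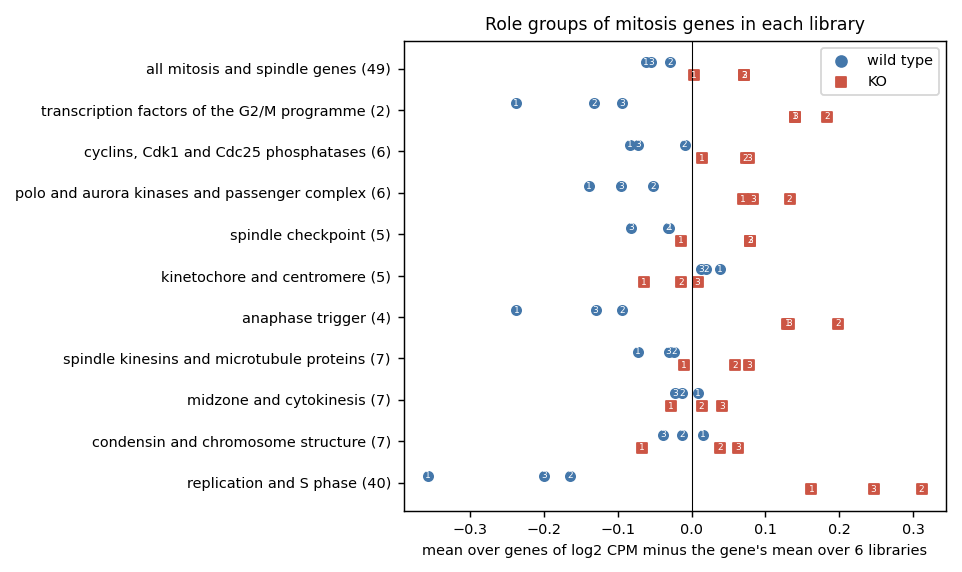
Mean over the genes of each role group (y axis, number of genes in brackets) of log2 CPM relative to the 6-library mean of each gene (x axis), with circles for wild type and squares for KO, numbered by replicate. Over all 49 genes KO replicate 1 lies at 0.00331 and wild-type replicate 2, the nearest, at -0.03, while replication and S phase genes are spread much wider.

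Genes of the preceding cell cycle phase were compared as a listed set of 40 for replication and S phase. Of these 39 rose, 0 fell and 1 did not pass, with a median log2 fold change of 0.47, against 0.11 for the mitotic genes. Over all tested genes 26.7% rose, 26.1% fell and the median was 0.01. The list of 40 was chosen with earlier results of these data known. Dut, which prevents uracil from entering DNA, rose by log2 0.61 ± 0.05, and the thymidylate synthase gene Tyms by log2 0.72 ± 0.07. These 40 genes held 0.414% ± 0.035 of counts in wild type and 0.596% ± 0.029 in KO (SD, n = 3 each). Whether the shift of the mitotic set differs from that of the replication set was not tested. Of the 49 mitotic genes only Mybl2 (log2 0.70) and Plk1 (log2 0.49) exceeded the median of the replication list.

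**Figure D4:**
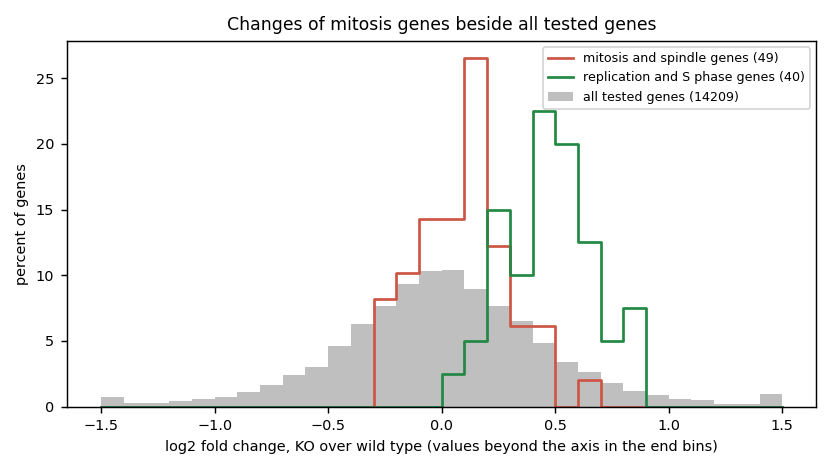
Percent of genes (y axis) by log2 fold change of KO over wild type (x axis, bins of 0.1) for all 14209 tested genes (grey bars), the 49 mitosis and spindle genes (red line) and 40 replication and S phase genes (green line). The mitosis genes centre near a median of 0.11 and the replication genes near 0.47.

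Other genes of the mitotic machinery were followed through lists by function, chosen with earlier results of these data known. Over all tested genes 26.7% rose and 26.1% fell. Of 34 further kinetochore and centromere genes, 16 rose, 3 fell and 15 stayed short of the threshold (median log2 fold change 0.14). Casc5, now named Knl1, the platform on which Bub1 and Bub3 dock, rose by log2 0.38 ± 0.06. The 3 that fell were Hjurp, the chaperone that places CENP-A at centromeres (1054 ± 125 to 693 ± 27.7 CPM, log2 -0.60 ± 0.07), Sgol2a, a protector of centromeric cohesin (log2 -0.22 ± 0.06), and Cenpl (log2 -0.22 ± 0.08). The next highest wild-type mean of that list after Hjurp was 117 CPM (Kntc1, values not scaled by length), and whether all reads counted for Hjurp come from its mRNA was not tested.

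Of 32 centrosome and spindle assembly genes, 14 rose, 2 fell and 16 stayed short of it (median 0.09). Tubg1, the gamma-tubulin that nucleates microtubules (log2 0.56 ± 0.08), and Haus7, an augmin subunit (log2 0.52 ± 0.09), had the smallest adjusted p. The 2 that fell were Kifc1, a minus-end motor that clusters spindle poles (log2 -0.28 ± 0.06), and the centriole gene Cep135 (log2 -0.19 ± 0.07). Of 16 entry and exit regulators, 10 rose and 1 fell (median 0.26). They include Trip13, the ATPase that recycles Mad2 (26.1 ± 3.55 to 43.9 ± 3.85 CPM, log2 0.74 ± 0.10), and Gtse1 (log2 0.44 ± 0.05), while Ensa, a phosphatase inhibitor of mitosis, fell (log2 -0.17 ± 0.04).

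Of 17 subunits and regulators of the anaphase-promoting complex, 4 rose, 2 fell and 11 stayed short of it (median 0.02). Neither direction exceeded its share of all tested genes, 26.7% higher and 26.1% lower. Anapc15 rose (log2 0.35 ± 0.07), and Anapc16 (log2 -0.52 ± 0.08) and the catalytic core gene Anapc2 (log2 -0.18 ± 0.04) fell. Cohesin, the ring that separase opens, had 1 of 13 genes higher and 3 lower (median 0.01). Nipbl, which loads it, fell by 0.49 ± 0.07 on the log2 scale and Stag2 by 0.25 ± 0.06, while its paralog Stag1 rose by log2 0.17 ± 0.06, a call lost in 5 of 15 alternatives (adjusted p up to 0.122). Of the 3 subunits particular to condensin II, Ncaph2 fell (log2 -0.19 ± 0.04) and the other two, among them Ncapg2 (log2 0.14 ± 0.06), did not pass.

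For late cytokinesis 8 of 11 listed genes were matched, of which 0 rose, 3 fell and 5 stayed short of it (median -0.0038). Cit, citron kinase of the midbody, fell from 180.1 ± 12.4 to 130.5 ± 9.38 CPM (log2 -0.46 ± 0.07), and the abscission ATPase gene Vps4a fell by 0.22 ± 0.06 on the log2 scale. Of 11 genes for the MuvB core and its DREAM partners, 3 rose and 5 fell (median -0.03). The E2F dimer partner Tfdp1 rose from 102 ± 12.5 to 166 ± 8.85 CPM (log2 0.70 ± 0.08) while Tfdp2 fell (log2 -0.40 ± 0.06), and the other risers were Rbbp4 (log2 0.21 ± 0.05) and E2f4 (log2 0.13 ± 0.05). E2f4 did not pass in 10 of 15 alternatives (adjusted p up to 0.167). Of 10 tubulin and stathmin genes, 6 rose and 2 fell (median 0.47), with Tubb4b (log2 0.86 ± 0.10) and Tuba1b (log2 0.69 ± 0.08) rising. Tubb5 (2007 ± 83.4 to 1786 ± 13.2 CPM, log2 -0.17 ± 0.04) and Tubb2b (log2 -0.47 ± 0.12) fell. Some tubulin genes are near-identical copies, so reads may be shared between those. With library totals alone as the scaling Anapc2, Cep135, Ensa, Vps4a, Sgol2a and Cenpl did not pass, and the log2 fold changes of Tubb5 and Ncaph2 were -0.09 and -0.11. In other alternatives too, calls were lost for Cep135 (8 of 15 in all), Cenpl (5) and Sgol2a (3).

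Promoter sequence was a property that the choice of genes did not use. RefSeq start windows of build GRCm38.p6, from 250 bases before to 50 after the start, were matched by symbol for 41 of the 49 genes. Those without one were Aurkb, Ccna2, Cdc25c, Foxm1, Incenp, Kif20a, Smc4 and Tpx2. The windows were searched on both strands for the cell cycle genes homology region (CHR, spelled TTTGAA or TTCGAA), the element that MuvB complexes bind, for the CCAAT box (CCAAT), bound by the factor NF-Y, and for E2F-like letters (TTCCCGC or TTTGGCG or TTTCGCG). CHR letters were in 32 of 41 windows, 78%, against 19.2% of all 32851 windows in the table, and CCAAT was in 30 of 41, 73.2%, against 37.4%. Both were in 28 of 41, 68.3%, against 7.52% of all windows. E2F-like letters were in 4 of 41, 9.76%, against 6.72%.

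The CHR letters lay close to the start, with a median distance of 4.5 bases after it over 43 matches, and CCAAT lay upstream, with a median of 70.5 bases before it over 68 matches. CHR letters were in 13 of the 18 rising genes with a window, in all 8 falling genes with one and in 11 of the 15 that did not pass, and CCAAT letters in 13, 6 and 11 of them. A match of letters is a description of the window and does not show that a factor binds there.

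The 5 windows printed here belong to Mybl2, Plk1 and Ccnb1, which rose, and to Cdc25b and Ndc80, the falling genes of smallest adjusted p, so that both directions can be read side by side. Each runs 5′ to 3′ on the gene's strand from 120 bases before the RefSeq start to 50 after it, in lower case, with CHR, CCAAT and E2F-like letters of either strand in capitals. On GRCm38.p6 they lie at chr2:163054515-163054684 (Mybl2, plus strand), chr7:122159315-122159484 (Plk1, plus), chr13:100786437-100786606 (Ccnb1, minus), chr2:131186828-131186997 (Cdc25b, plus) and chr17:71526808-71526977 (Ndc80, minus).
Mybl2: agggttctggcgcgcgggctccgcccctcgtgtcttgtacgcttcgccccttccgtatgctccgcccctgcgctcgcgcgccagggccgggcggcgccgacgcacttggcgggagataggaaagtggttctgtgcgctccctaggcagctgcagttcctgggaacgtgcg
Plk1: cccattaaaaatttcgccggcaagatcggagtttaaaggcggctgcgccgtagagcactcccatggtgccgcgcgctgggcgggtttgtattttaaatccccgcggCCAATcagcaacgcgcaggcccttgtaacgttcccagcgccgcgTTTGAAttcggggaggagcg
Ccnb1: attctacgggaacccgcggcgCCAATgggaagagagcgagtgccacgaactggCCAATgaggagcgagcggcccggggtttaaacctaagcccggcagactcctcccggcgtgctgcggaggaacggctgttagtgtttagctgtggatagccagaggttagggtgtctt
Cdc25b: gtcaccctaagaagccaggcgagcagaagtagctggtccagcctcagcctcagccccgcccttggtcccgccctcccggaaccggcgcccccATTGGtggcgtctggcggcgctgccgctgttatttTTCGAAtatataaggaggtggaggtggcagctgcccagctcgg
Ndc80: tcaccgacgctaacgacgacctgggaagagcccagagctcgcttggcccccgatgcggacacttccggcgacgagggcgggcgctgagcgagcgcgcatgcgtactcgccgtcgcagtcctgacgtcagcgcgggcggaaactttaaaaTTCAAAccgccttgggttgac

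The window of Plk1, which rose, and that of Cdc25b, which fell, each hold 1 CHR match, centred 32.5 and 9.5 bases after the start, and 1 CCAAT match, centred 12 and 26 bases before it. Ccnb1 holds 2 CCAAT matches, centred 97 and 65 bases before the start, and none of the CHR spellings searched. Ndc80 holds a CHR match on the opposite strand, centred 31.5 bases after the start. Mybl2 holds none of the letters searched in this window. No start of Mybl2 in the GENCODE annotation lies within 50 bases of this RefSeq start, and other E2F spellings were not searched.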

How the data were processed

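RNA of 6 libraries of activated spleen T cells, 3 wild type and 3 Drp1 KO, was compared, with groups and replicate numbers from the sample titles. The authors deposited raw counts per gene symbol, 1 column per library. Per the submitters' processing notes the genome was mm10 and the tools were HTSeq 0.6.1, STAR 2.5.2, FastQC, Cufflinks and DESeq2 1.12, with no roles given. Per the labels' protocols the mRNA kit was stranded; the counting's strand setting, annotation release and handling of reads that match several gene copies were not stated in any source used here. Exons of 11 of the 49 genes overlap another gene.

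The table held 45808 rows; 27 had become dates (0.241% of counts), among them the septin genes, and were kept in the fit. The test was edgeR 4.0.16 (R 4.3.3) with TMM factors of 0.949 to 1.03, filterByExpr, the quasi-likelihood F test, 2-sided, with p adjusted by Benjamini-Hochberg over all 14209 tested genes; every adjusted p here comes from it unless another tool is named. Log2 fold changes are KO over wild type with their standard error, CPM uses TMM factors, and log2 CPM has a prior count of 2. A floor of 3 counts equals 0.0864 to 0.121 CPM. Positions and exon lengths are from GENCODE M21 on the same build; promoter windows are from RefSeq, taking for genes with several starts the one nearest most GENCODE starts.

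The 49 genes, the role groups and the 10 lists of other genes were chosen with earlier results of these data known. Values per library are given for the gene of smallest adjusted p in each role group, for each gene that fell, and for Mki67, Ccnb1 and Cdk1; Top2a and Foxm1 were added after their values were seen. From each list the 2 genes of smallest adjusted p are named, with those called against its majority direction where at most 3. Alternatives were DESeq2 size factors, upper quartile factors and library totals in edgeR, DESeq2 1.42.0, limma-voom (limma 3.58.1), no filter, 1 CPM in 3 libraries, a replicate block, an adjusted p under 0.01, and each library left out. A marker gene is not reported here. The procedure was tested on simulated data. Figures were drawn with matplotlib 3.10.9.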

Additional observations from a re-analysis of the deposited data

How the results depend on the processing

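With all libraries 21 mitotic genes were higher and 9 lower in KO, among 7513 called genes. Over 15 alternatives 14 of the 21 stayed higher in each one: Aurka, Birc5, Bub3, Ccnb1, Cdc20, Cdk1, Espl1, Kif20a, Mad2l1, Mybl2, Plk1, Pttg1, Tpx2 and Ube2c. Of the 9, Cdc25b and Ndc80 stayed lower in each. None of the 30 called mitotic genes changed direction in these alternatives. The count of lower genes was 3 with library totals alone, where the median log2 fold change of the 49 was 0.18 against 0.11, and 3 at an adjusted p under 0.01. Leaving out 1 library gave 3 to 9 lower and 14 to 22 higher genes, 5985 to 7534 called genes, and a median of 0.09 to 0.13; the cause was not tested. With the replicate number as a block, 24 genes were higher and 9 lower, and 7900 genes were called. Whether the replicate numbers pair the samples was not tested. Same-numbered libraries deviated together with correlations of 0.174, 0.125 and 0.0112, and wild-type replicate 3 correlated best with KO replicate 2 (0.105). Deviations from a mean of 3 libraries depend on each other, so these correlations cannot decide it. The lowest wild-type mean among these genes was 25.4 CPM (Pttg1), far over the 3-count floor of 0.121 CPM or less.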
